A study of Mus musculus with 3 samples.

Results

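Lysosomal enzymes and membrane proteins are described here as 34 genes in ovaries of mice in which Bmal1 (gene symbol Arntl), a core circadian clock factor, is by design deleted where the sf-1 promoter drives Cre. The genes are 11 proteases, 3 cofactors of lysosomal enzymes, 8 glycosidases, 5 other hydrolases and 7 membrane proteins. A gene was read by the probes that carry its name on the array, and by the brightest of them where there were several. All 34 had a probe, of 28090 names with a probe, and all 34 belonged to the 17889 genes bright enough to be tested. They were read by 59 probes in 68 spots per array.

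Conditional knockout females (cKO) were Bmal1fx/fx and carried sf-1Cre, and control females were Bmal1fx/fx without Cre, so both genotypes had the floxed alleles. Both genotypes were C57Bl/6J, aged 10 weeks and 3.5 days past copulation, and their ovaries were taken at Zeitgeber time 12, when the lights go off. On each of 3 arrays a pool of 3 cKO animals labelled with cy3 was hybridised against a pool of 3 control animals labelled with Cy5, which makes 3 pools from 9 animals per genotype. The sf-1 promoter is known to be active in steroid-producing cells of the gonads and adrenal and in parts of the pituitary and hypothalamus, while each pool held RNA of whole ovaries. Genotype and dye cannot be told apart, because the cKO pool was always the cy3 one. Markers of luteal cells (9 of 9), granulosa cells (9 of 9) and oocytes (11 of 11) were bright enough to be tested.

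Lysosomes are acidic vesicles in which proteins, glycans, lipids and whole organelles are broken down. Their enzymes reach them mostly through mannose 6-phosphate receptors, their membranes are lined with heavily glycosylated proteins such as LAMP1 and LAMP2, and many of their genes are activated by the transcription factor TFEB and its relatives. Macrophages, which clear dying follicles and regressing corpora lutea in the ovary, are rich in lysosomes, and luteal cells use lysosomal lipid hydrolysis to free cholesterol from lipoproteins.

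Each value is a log2 ratio, cKO over control, within a spot, so a positive ratio means more signal in the cKO pool, and means are given ± SD over the 3 arrays (n = 3). Between 67.4% and 69.1% of cKO spots and between 62.9% and 65.8% of control spots were well above background. Precision is limited by there being only 3 arrays. Array 1 lay on another slide than arrays 2 and 3. The targeted gene, Arntl, had ratios of 0.27, 0.13 and -0.24 on arrays 1 to 3 (mean 0.06 ± 0.27, limma adjusted p = 0.933). The labels do not state which part of Arntl is removed, so its probe does not check the deletion. Star, the mitochondrial cholesterol carrier of steroid-producing cells, was 17.0-fold lower in the cKO ovaries, with ratios of -4.05, -3.98 and -4.23 (limma adjusted p = 0.0194). Across all genes tested, the correlation of ratios was r = 0.602 for arrays 1 and 2, 0.214 for 1 with 3, and 0.00929 for 2 with 3, although the last pair shared a slide.

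None of the 34 lysosomal genes reached an adjusted p under 0.05 in limma's test with Benjamini-Hochberg adjustment, beside 0.224% of all genes tested, or 40 of 17889 (0.101% higher and 0.123% lower in cKO ovaries). No gene, Star included, was called after scaling between arrays, without the filter on dim probes or without array 3. The lowest adjusted p of a lysosomal gene was 0.330, for Lgmn, and the highest was 0.970, for Lipa. At an unadjusted p under 0.05, 6 of the 34 were called, beside 12.3% of all genes. Of these 6, Ctsc, Ctsh, Ctss and Lgmn had positive ratios (background 5.89%) and Scarb2 and Arsb negative ratios (background 6.43%). Mean ratios ran from -0.46 for Lamp1 to 1.31 for Ctss, with 22 of the 34 above 0, beside 8948 of the 17889 genes tested. With the ratios computed by the scanner software in place of the normexp and loess values, 11 of the 34 means changed sign, as is said at the genes concerned.

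The 3 arrays gave different pictures of these genes. The median ratio of the 34 was 0.38 on array 1, 0.27 on array 2 and -0.33 on array 3, while the median of all genes lay within 0.01 of 0 on each array. A ratio above 0 on arrays 1 and 2 and below 0 on array 3 was found for 18 of the 34, beside 17.3% of all genes. Array 3 held the lowest of the 3 ratios for 28 of the 34 (background 40.5%), and for 14 of them it lay at least 1 log2 unit below the mean of the other arrays (background 6.50%). Across the 34 genes, which share the arrays, the correlation was r = 0.832 for arrays 1 and 2, 0.127 for 1 with 3, and 0.0248 for 2 with 3. The median SD over arrays was 0.473 for the 34 genes and 0.280 for all genes.

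The median of the 34 mean ratios depended on which arrays entered: it was 0.16 over all 3 arrays, 0.35 without array 3, 0.09 without array 2 and -0.03 without array 1. The last value is also the value within the slide of arrays 2 and 3. Without array 3, 18 lysosomal genes had an unadjusted p under 0.05 (26.7% of all genes), without array 2 there were 2 (7.76% of all genes), and without array 1 there were 0 (4.32% of all genes). None passed an adjusted p of 0.05 in any of these fits.

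**Figure D1:**
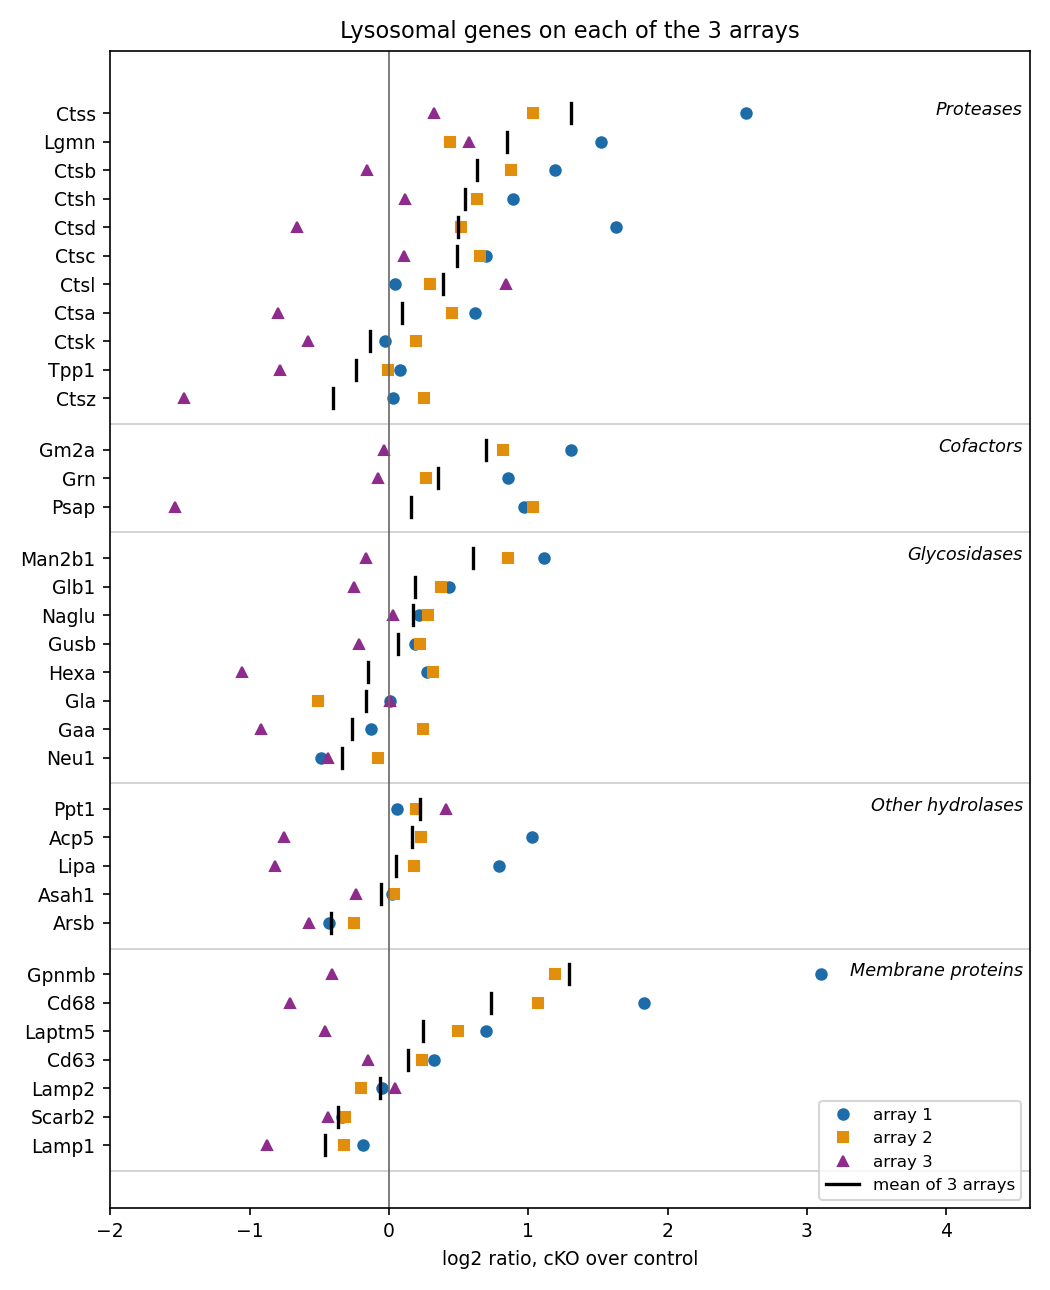
Log2 ratio of cKO over control (x axis) of the 34 lysosomal genes (rows, grouped by role and ordered by mean) on array 1 (circles), array 2 (squares) and array 3 (triangles), with the mean as a black bar. Triangles lie left of the other symbols for 28 of the 34 genes, and Gpnmb, Ctss, Cd68 and Ctsd reach farthest to the right, all on array 1.

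Among the proteases, the median ratio was 0.70 on array 1, 0.45 on array 2 and -0.16 on array 3, and 8 of the 11 had a mean above 0. Cathepsin S (Ctss), the cysteine protease that trims the invariant chain in antigen-presenting cells, had ratios of 2.56, 1.04 and 0.33 on arrays 1 to 3. Its level, a log2 intensity, was 14.74, 13.05 and 12.39 in the cKO pools, against 12.18, 12.01 and 12.07 in the control pools. All cKO pools lay above all control pools, but the cKO pools differed among themselves by over 2 log2 units, and the mean ratio of 1.31 ± 1.14 did not pass (limma adjusted p = 0.362).

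Legumain (Lgmn), the asparaginyl endopeptidase that matures several cathepsins, had ratios of 1.52, 0.44 and 0.58. The cKO pools had log2 intensities of 13.82, 12.87 and 13.09, against 12.30, 12.43 and 12.52 in the control pools. The pools of each genotype did not overlap, and the mean was 0.84 ± 0.59 (limma adjusted p = 0.330). Every cKO pool level lay above every control pool level for 4 of the 34 lysosomal genes, Ctsh, Ctsl, Ctss and Lgmn, beside 10.0% of all genes.

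Cathepsin H (Ctsh), an aminopeptidase, had ratios of 0.89, 0.63 and 0.12, and its log2 intensity was 13.69, 13.24 and 12.80 in the cKO pools, against 12.80, 12.61 and 12.68 in the control pools. Its lowest cKO pool thus stood barely above its highest control pool (mean 0.55 ± 0.39, limma adjusted p = 0.372). Cathepsin C (Ctsc), which activates granule serine proteases, had ratios of 0.70, 0.65 and 0.11 (0.49 ± 0.33, adjusted p = 0.380). Both were above 0 on every array and smallest on array 3. By the scanner's ratios array 3 gave -0.098 for Ctsh, -0.15 for Ctsc and -0.0036 for Ctss.

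Cathepsin L (Ctsl), a broad endopeptidase that is also made by granulosa cells at ovulation, ran the other way across arrays, with ratios of 0.04, 0.29 and 0.84. In cKO pools its log2 intensity was 14.95, 14.93 and 15.15, against 14.91, 14.64 and 14.31 in the control pools. The cKO pools were close to each other and the control pools were spread, and the mean was 0.39 ± 0.41 (limma adjusted p = 0.507). On array 1 the scanner's ratio of Ctsl was -0.15.

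Cathepsin B (Ctsb), an abundant cysteine protease, had ratios of 1.19, 0.87 and -0.16 (0.64 ± 0.71, limma adjusted p = 0.471). Cathepsin D (Ctsd), the main aspartic protease of lysosomes, had ratios of 1.63, 0.52 and -0.66 (0.50 ± 1.14). Levels (log2 intensity) were 14.998, 14.22 and 13.71 in the cKO pools, against 13.37, 13.70 and 14.37 in the control pools. The cKO and control pools of Ctsd overlapped, and the pool order was reversed between the genotypes across the 3 arrays.

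The remaining proteases had means near or below 0 by their brightest probes. Cathepsin A (Ctsa), which protects the sialidase and beta-galactosidase in a complex, had ratios of 0.62, 0.45 and -0.80 (mean 0.09, and -0.0097 by the scanner's ratios). A second Ctsa probe, with a mean log2 intensity of 11.98 against 12.13, gave 1.04, 0.94 and 0.10 (0.69 ± 0.52). A dimmer Ctsa probe gave 0.11, 0.45 and -0.13. Cathepsin Z (Ctsz), a carboxypeptidase, had ratios of 0.03, 0.25 and -1.47, the lowest protease value on any array; its mean was -0.40, and 0.092 by the scanner's ratios. Cathepsin K (Ctsk), the collagen-degrading enzyme of osteoclasts, had ratios of -0.03, 0.19 and -0.58, and tripeptidyl peptidase 1 (Tpp1) had 0.08, -0.01 and -0.78. The mean of Ctsk was -0.14, and 0.056 by the scanner's ratios, and that of Tpp1 was -0.23, and 0.093 by the scanner's ratios. For all 4 of these genes array 3 gave the lowest ratio.

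The 3 cofactors had the pattern of a ratio above 0 on arrays 1 and 2 and below 0 on array 3. Prosaposin (Psap), the precursor of the saposins that present sphingolipids to their hydrolases, had ratios of 0.97, 1.04 and -1.54. Its log2 intensity was 14.64, 14.32 and 12.44 in the cKO pools, against 13.67, 13.28 and 13.97 in the control pools. The cKO pool on array 3 was the lowest of the 6 pools and the other cKO pools were the highest, and the mean of 0.16 ± 1.47 lies between the arrays' ratios (limma adjusted p = 0.949). A second probe of Psap gave 0.72, 0.95 and -1.46. Without array 3 the mean of Psap was 1.00 and its adjusted p 0.0812 (limma), the lowest of any lysosomal gene under any setting tried.

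The GM2 activator (Gm2a), which lifts GM2 ganglioside out of membranes for hexosaminidase A, had ratios of 1.30, 0.82 and -0.04 (0.70 ± 0.68, limma adjusted p = 0.427), and its second probe gave 1.92, 1.13 and -0.14. Progranulin (Grn), a secreted and lysosomal protein that is processed to granulins, had ratios of 0.86, 0.27 and -0.08 (0.35 ± 0.47), and its second probe gave 1.05, 0.97 and -0.66. In both genes, as in Psap, the 2 probes had the same sign on each array.

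**Figure D2:**
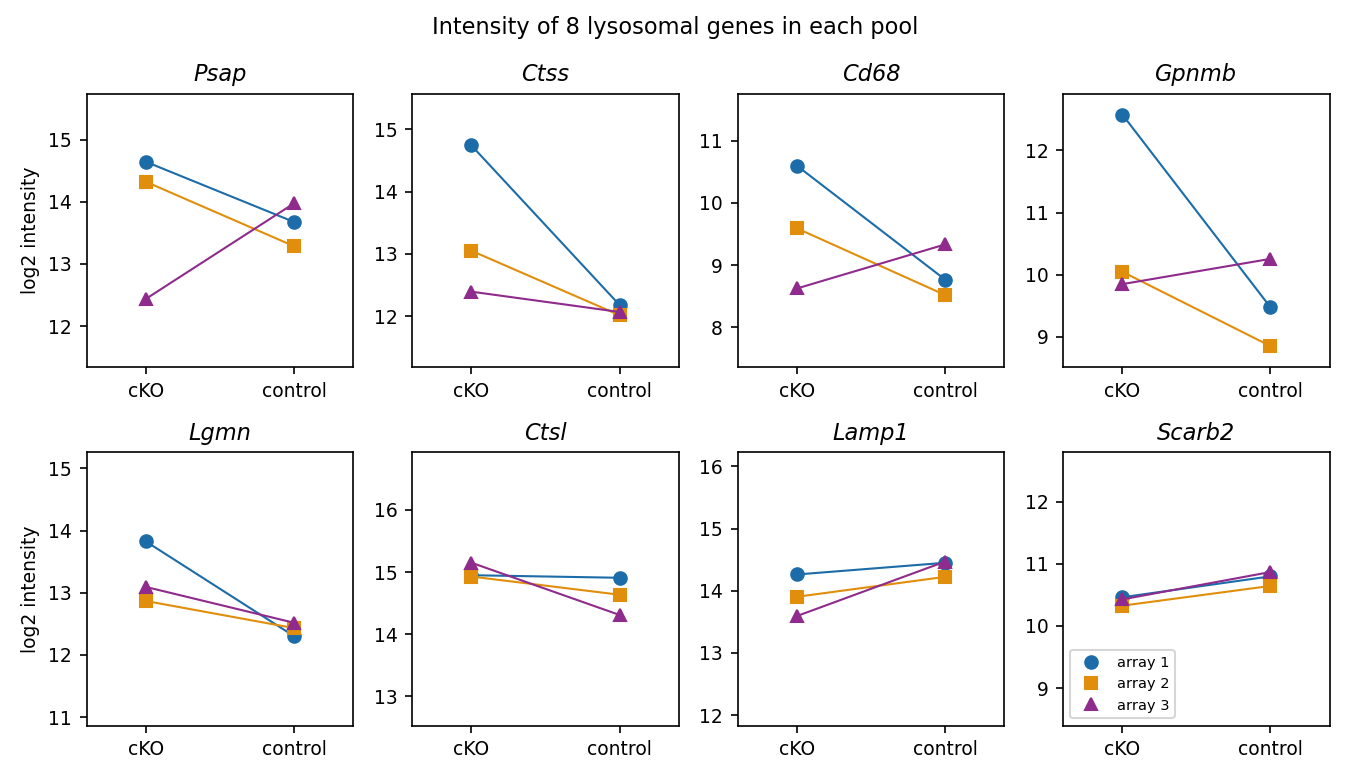
Log2 intensity (y axis, the same span in every panel) of 8 lysosomal genes in the cKO pool (left) and the control pool (right) of each array, with a line joining the pools that shared an array. The lines of Psap, Cd68 and Gpnmb slope down to the control on arrays 1 and 2 and up on array 3, while those of Lgmn and Ctsl slope down and those of Lamp1 and Scarb2 slope up on all 3 arrays.

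The glycosidases had smaller ratios, with medians of 0.20, 0.26 and -0.23 on arrays 1 to 3 and 4 of 8 means above 0. Alpha-mannosidase (Man2b1), which trims N-glycans, had the highest, with 1.12, 0.86 and -0.17 (0.60 ± 0.68, limma adjusted p = 0.481). Beta-galactosidase (Glb1), which acts on GM1 ganglioside and is the enzyme behind the senescence stain, had ratios of 0.43, 0.38 and -0.25 (mean 0.19, and -0.021 by the scanner's ratios). The alpha subunit of hexosaminidase (Hexa) had ratios of 0.28, 0.32 and -1.05. These 3 genes shared the sign change on array 3.

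N-acetylglucosaminidase (Naglu), a heparan sulfate enzyme, was above 0 on all arrays at 0.22, 0.28 and 0.03 (0.18 ± 0.13, limma adjusted p = 0.662), and its mean was -0.065 by the scanner's ratios. The sialidase Neu1 was below 0 on all arrays by its brightest probe, at -0.49, -0.08 and -0.44 (-0.33 ± 0.22, adjusted p = 0.454). By the scanner's ratios this probe gave 0.15 on array 2, and a dimmer probe of Neu1 gave 0.11, 0.37 and -0.60. Acid alpha-glucosidase (Gaa), which degrades glycogen, had ratios of -0.13, 0.25 and -0.92, and alpha-galactosidase A (Gla), which acts on globotriaosylceramide, had ratios of 0.01, -0.51 and 0.01. None of the 8 glycosidases had an unadjusted p under 0.05.

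Beta-glucuronidase (Gusb) was printed in 10 spots on each array and so shows the spread of spots as well as that of pools. Its ratios were 0.19, 0.22 and -0.22 on arrays 1 to 3, with an SD over the 10 spots of 0.283, 0.215 and 0.232. The 10 spots ran from -0.28 to 0.59 on array 1, from -0.10 to 0.54 on array 2 and from -0.58 to 0.20 on array 3. The ranges of the 3 arrays overlapped, and the mean was 0.06 ± 0.24 (limma adjusted p = 0.916).

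Of the other hydrolases, arylsulfatase B (Arsb), which desulfates dermatan sulfate, was below 0 on all arrays with ratios of -0.43, -0.25 and -0.58 (-0.42 ± 0.16, limma adjusted p = 0.349). Levels were 9.06, 9.33 and 9.32 log2 intensity in the cKO pools, against 9.49, 9.58 and 9.89 in the control pools. A dimmer probe of Arsb that passed the filter gave ratios of 0.18, -0.19 and -0.73. All cKO pools lay below all control pools for Arsb, Neu1 and Scarb2, 3 of the 34 genes as read by their brightest probes, beside 9.83% of all genes. Palmitoyl-protein thioesterase 1 (Ppt1) was above 0 on all arrays at 0.06, 0.20 and 0.41, but at -0.18 on array 1 by the scanner's ratios.

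Lysosomal acid lipase (Lipa), which hydrolyses the cholesteryl esters and triglycerides of lipoproteins, had ratios of 0.79, 0.18 and -0.81 (0.05 ± 0.81, limma adjusted p = 0.970). The cKO pools had log2 intensities of 9.68, 9.20 and 7.83, against 8.88, 9.02 and 8.64 in the control pools. The control pools of Lipa were close together and the cKO pools lay on both sides of them. Acid ceramidase (Asah1) stayed within 0.24 of 0 on every array, at 0.03, 0.04 and -0.24 (mean -0.06, and 0.16 by the scanner's ratios). Tartrate-resistant acid phosphatase (Acp5), a marker enzyme of osteoclasts and some macrophages, had ratios of 1.03, 0.23 and -0.76.

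Of the 7 membrane proteins, Lamp1, Lamp2 and Scarb2 had means below 0 and the other 4 above 0, and only Scarb2 had an unadjusted p under 0.05. Lamp1, the major glycoprotein of the lysosomal membrane, had ratios of -0.19, -0.32 and -0.88. In cKO pools the log2 intensity was 14.26, 13.90 and 13.59, against 14.45, 14.22 and 14.47 in the control pools. Only the cKO pool of array 1 exceeded a control pool, and the mean of -0.46 ± 0.36 was the lowest of the 34 (limma adjusted p = 0.418), but it was 0.030 with the scanner software's ratios.

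Lamp2, which also serves chaperone-mediated autophagy, had ratios of -0.05, -0.20 and 0.05 (mean -0.07, and 0.24 by the scanner's ratios). LIMP-2 (Scarb2), the receptor that carries glucocerebrosidase to lysosomes, had ratios of -0.34, -0.32 and -0.44, the smallest spread of the 34 genes (-0.36 ± 0.07, limma adjusted p = 0.361). The mean of Scarb2 was 0.065 by the scanner's ratios. Its other probe, given with its sequence after the promoters, had a mean of 0.30, opposite in sign to the -0.36. Cd63, a tetraspanin of late endosomes, had ratios of 0.33, 0.24 and -0.15 (mean 0.14, and -0.058 by the scanner's ratios).

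Gpnmb, a glycoprotein of melanosomes and lysosomes that is abundant in lipid-laden macrophages, had ratios of 3.1, 1.20 and -0.41, the widest range of the set. Its log2 intensity was 12.58, 10.05 and 9.85 in the cKO pools, against 9.48, 8.85 and 10.26 in the control pools. The cKO pool of array 1 stood over 2 log2 units above every other pool, and the mean was 1.30 ± 1.76 (limma adjusted p = 0.522). Cd68, the macrophage sialomucin, had ratios of 1.83, 1.07 and -0.71. Levels were 10.60, 9.59 and 8.62 log2 intensity in the cKO pools, against 8.77, 8.52 and 9.33 in the control pools. Laptm5, a lysosomal membrane protein of blood-derived cells, had ratios of 0.70, 0.49 and -0.46, and its second probe 1.47, 0.78 and -0.44.

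The array pattern was seen in the levels of both channels, which come from the same spots as the ratios and are no separate measurement. The cKO level was lower on array 3 than on the mean of arrays 1 and 2 for 27 of the 34 genes, by a median of 0.50 log2 units, beside 47.9% of all genes. The control level was higher on array 3 for 22 of the 34, by a median of 0.27 log2 units, also beside 47.9% of all genes. The summed intensity of the 34 genes was 348103, 254451 and 189536 in the cKO pools, against 216536, 196216 and 229352 in the control pools. The cKO pool of array 3 thus had the lowest sum of all 6 pools, and the cKO pools of arrays 1 and 2 had the highest. No pool was hybridised more than once, so a difference between pools and one between hybridisations cannot be told apart.

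Of the 34 genes, 6 are also known as abundant in macrophages or other blood-derived cells: Cd68, Laptm5, Ctss, Gpnmb, Acp5 and Ctsc. Their median ratio was 1.43, 0.85 and -0.43 on arrays 1 to 3, and that of the other 28 genes was 0.20, 0.25 and -0.24. Markers of macrophages that are not in the set moved alongside. Each of the 17 was well above background in every pool, and their median ratio was 0.76, 0.52 and -0.37. Of the 17, 12 had ratios above 0 on arrays 1 and 2 and below 0 on array 3. Their summed intensity was 90193, 57266 and 38278 in the cKO pools, against 27061, 28791 and 38169 in the control pools.

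The highest macrophage marker was Lyz2, lysozyme, with 2.46, 1.23 and 0.46 (1.38 ± 1.01, limma adjusted p = 0.320), followed by the Fc receptor Fcgr1 (0.74 ± 0.47) and the perforin-like Mpeg1 (0.66 ± 0.69). Of the 17 macrophage markers 13 had a mean above 0 and the others were below 0, with the lowest mean at -0.32. Markers of smooth muscle (7) had medians of 0.22, 0.90 and -1.05 and 6 of the 7 had ratios above 0 on arrays 1 and 2 and below 0 on array 3. Markers of fibroblasts (9) had medians of 0.67, 1.12 and 0.17, and 1 of the 9 had those signs. Array 1 stood apart for epithelium markers (9), with medians of 1.25, -0.54 and -0.49, and granulosa markers (9) ran the other way, with medians of -0.40, -0.12 and 0.02. The part of these cells in the lysosomal ratios was not tested. In whole ovaries, a different number of cells of a type and a different amount of RNA per cell cannot be told apart.

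**Figure D3:**
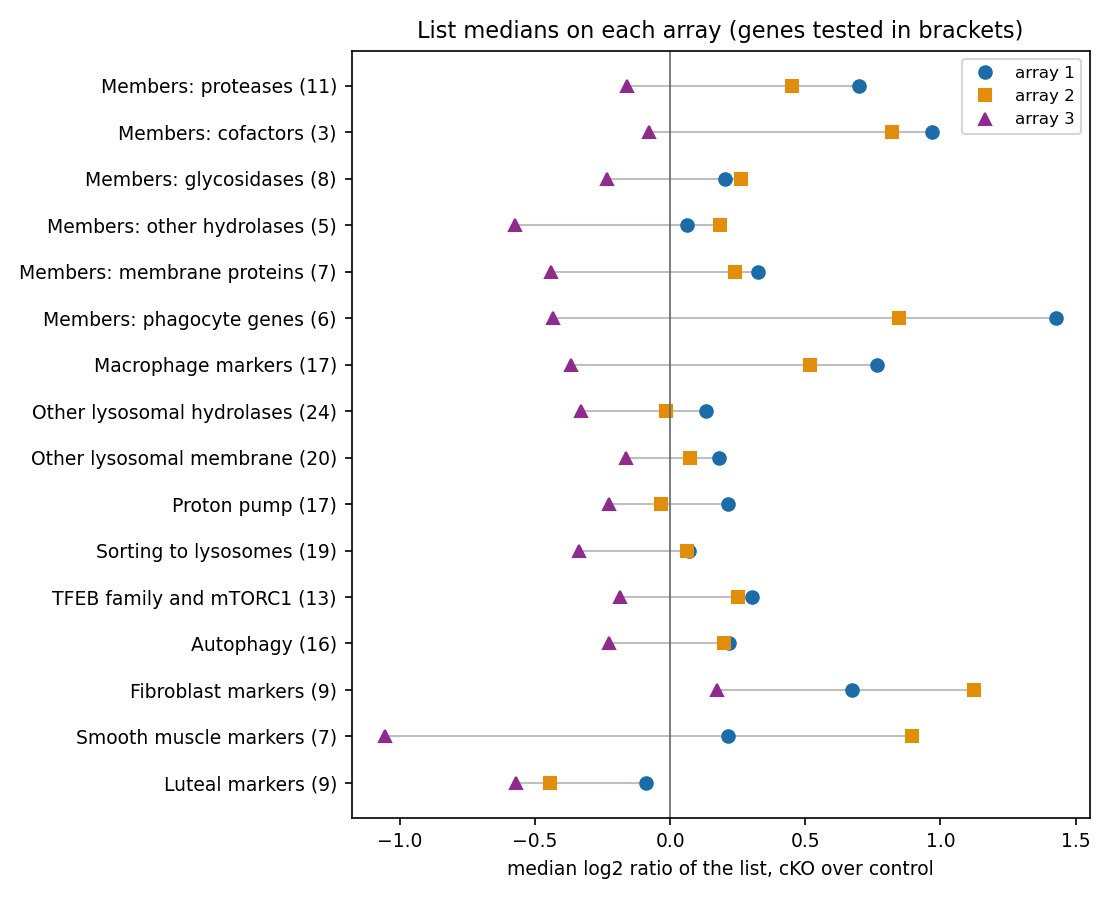
Median log2 ratio of cKO over control (x axis) of each gene list (rows, number of genes tested in brackets) on array 1 (circles), array 2 (squares) and array 3 (triangles), with a grey line over the range. The phagocyte genes among the members and the macrophage markers both run from above 0.5 on arrays 1 and 2 to below -0.3 on array 3.

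Other genes of the lysosome were read from lists beside the 34. Among 24 other hydrolases and their cofactors, 12 had a mean above 0 and the medians on arrays 1 to 3 were 0.13, -0.02 and -0.33. None passed an adjusted p of 0.05, and 1 was higher and 2 lower at an unadjusted p under 0.05 (background 5.89% and 6.43%). Sumf1, which activates the sulfatases, had a mean of -0.43 ± 0.18, and Smpd1, acid sphingomyelinase, 0.41 ± 0.34. Among 20 other membrane proteins the medians were 0.18, 0.07 and -0.16, none passed, and Cd164, a sialomucin, had the largest mean at 0.87 ± 0.64. Cln3, a membrane protein lost in juvenile Batten disease, had -0.54 ± 0.58, and Laptm4b 0.40 ± 0.43.

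Of the 17 subunits of the vacuolar proton pump, which acidifies the lysosome, none passed either, and the medians were 0.21, -0.03 and -0.22. Atp6v0d2, a membrane-sector subunit enriched in macrophages and osteoclasts, had ratios of 2.00, 1.04 and 0.67 (1.24 ± 0.68, limma adjusted p = 0.263). Atp6ap2, the pump's accessory protein and prorenin receptor, had ratios of -0.72, -1.14 and -0.61 (-0.82 ± 0.28, adjusted p = 0.239). The catalytic subunit Atp6v1a had -0.45 ± 0.37. Subunits of the same pump thus had ratios on both sides of 0.

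Of 19 sorting genes none passed, with 1 higher and 4 lower at an unadjusted p under 0.05 (background 5.89% and 6.43%). The largest means by size were those of Rab7, the late endosome GTPase (-0.50 ± 0.31), Vps33a, a tethering complex subunit (-0.46 ± 0.02, limma adjusted p = 0.295), and Gga3, an adaptor for mannose 6-phosphate receptors (0.45 ± 0.57). Of these, Gga3 was not among the genes at an unadjusted p under 0.05. Of 14 genes of the TFEB family and its control by the kinase mTORC1 at the lysosome, 13 were tested and none passed. Rptor, the mTORC1 scaffold, had 0.50 ± 0.20, its activator Rheb 0.42 ± 0.25, and the TFEB relative Mitf ratios of 0.21, -0.01 and -1.68. Of 16 autophagy genes none passed. Map1lc3a, an LC3 protein of autophagosomes, had -0.88 ± 0.75, the initiating kinase Ulk1 0.63 ± 0.28 and Gabarapl1 0.38 ± 0.51. The medians of the sorting, TFEB and autophagy lists lay above 0 on arrays 1 and 2 and below 0 on array 3, as in the 34 genes.

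Promoters of the 34 genes were read for the E-box CACGTG, the palindrome that both the BMAL1 and CLOCK pair and TFEB are known to bind. RefSeq sequences of GRCm38.p6 from 250 bases before to 50 bases after the gene start were matched for 31 of the 34. The letters were found in 9 of these 31 (29.0%), namely Ctsa, Ctsd, Ctsl, Lamp1, Gla, Glb1, Gaa, Lgmn and Naglu, and in 2187 of 27025 promoters of all genes (8.09%). The longer GTCACGTG, which contains it and was read on both strands, was found in 7 of the 31 (22.6%) and in 2.55% of all promoters. The median mean ratio was 0.18 for the 9 genes with an E-box and 0.15 for the 22 without. Of the 9 genes, 6 had a mean above 0, as had 22 of all 34. The means of the 9 ran from that of Lamp1, the lowest of the 34, to that of Lgmn. The stretches of 4 of these promoters are shown because they hold the lowest gene, the highest of the 9, a gene whose ratio was split between arrays and a gene with a small ratio and 2 E-boxes. Capitals mark each E-box, the sequence runs 5′ to 3′ along the gene's strand, and the matches are descriptions of letters and not of binding.
Lamp1, plus strand, chr8:13159085-13159160: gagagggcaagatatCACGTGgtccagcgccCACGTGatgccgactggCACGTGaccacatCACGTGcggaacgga
Lgmn, minus strand, chr12:102439121-102439156: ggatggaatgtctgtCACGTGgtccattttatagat
Ctsd, minus strand, chr7:142387905-142387940: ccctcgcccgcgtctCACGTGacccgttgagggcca
Gla, minus strand, chrX:134601179-134601247: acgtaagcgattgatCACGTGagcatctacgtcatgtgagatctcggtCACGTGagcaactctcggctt

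The stretch of Lamp1 holds 4 E-boxes within its 76 bases before the gene start, more than any other of the 9 genes. That of Lgmn holds 1, which begins 49 bases before the start. Ctsd has a second E-box, outside the stretch shown, that begins 245 bases before the start. Beside these sequences stand mean ratios of -0.46 for Lamp1, 0.84 for Lgmn, 0.50 for Ctsd and -0.17 for Gla, none of which passed. In a list of 12 clock genes, made of Arntl and of genes with known E-box control, 11 were tested and 5 of these had a mean above 0. Nr1d2 (-2.01 ± 0.31) and Dbp (-1.43 ± 0.05) passed, both lower in the cKO ovaries at a limma adjusted p of 0.0493, while the repressor Cry2 had ratios of 1.65, 1.93 and 0.68 (1.42 ± 0.65, adjusted p = 0.234).

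Probes of the same lysosomal gene did not always give the same direction. Of 19 other probes that passed the filter, in 16 genes, 8 had a mean of opposite sign to the brightest probe, in 7 genes: Ctsz, Gla, Glb1, Lamp2, Ppt1, Scarb2 and Tpp1. With the normexp and loess values, opposite signs on all 3 arrays were found for 2 of the probes, of Scarb2 and Ppt1. For Ppt1 the brightest probe had a mean of 0.22 ± 0.18, and its other probes -0.53 ± 0.12 and -0.06 ± 0.18. For Tpp1 the second probe gave 0.68, 0.50 and 0.51, beside the 0.08, -0.01 and -0.78 of the brightest. The sign of the mean of these 7 genes thus depended on the probe. For Ctsz and Glb1, however, both probes had the same sign on each array. The second probe gave 0.52, 0.64 and -1.05 for Ctsz, and 0.11, 0.28 and -0.68 for Glb1. The probes of opposite sign were dim for Lamp2 and Gla, with a mean log2 intensity of 6.47 and 6.51, as was 1 of Ppt1 at 6.63. Another probe of Lamp2, at 12.33, had a mean of -0.39 ± 0.27, the same sign as the brightest.

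The probes of Scarb2, on chromosome 5, overlap in sequence. They are shown because neighbouring stretches of 1 transcript gave opposite ratios with the normexp and loess values. Their 20 shared bases are in capitals, and the other probe ends where they end.
Scarb2 other probe: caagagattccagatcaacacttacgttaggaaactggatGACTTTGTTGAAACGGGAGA
Scarb2 brightest probe: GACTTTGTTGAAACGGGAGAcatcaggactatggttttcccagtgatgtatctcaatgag

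The other probe gave ratios of 0.44, 0.27 and 0.20 on arrays 1 to 3 (0.30 ± 0.12), and the brightest probe -0.34, -0.32 and -0.44. By the scanner's ratios, however, the brightest probe was above 0 on all 3 arrays, at 0.15, 0.022 and 0.027. With the normexp and loess values the difference between the 2 probes was larger than the spread of either over arrays. The ratio of Scarb2 so depended on which of them was read.

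**Figure D4:**
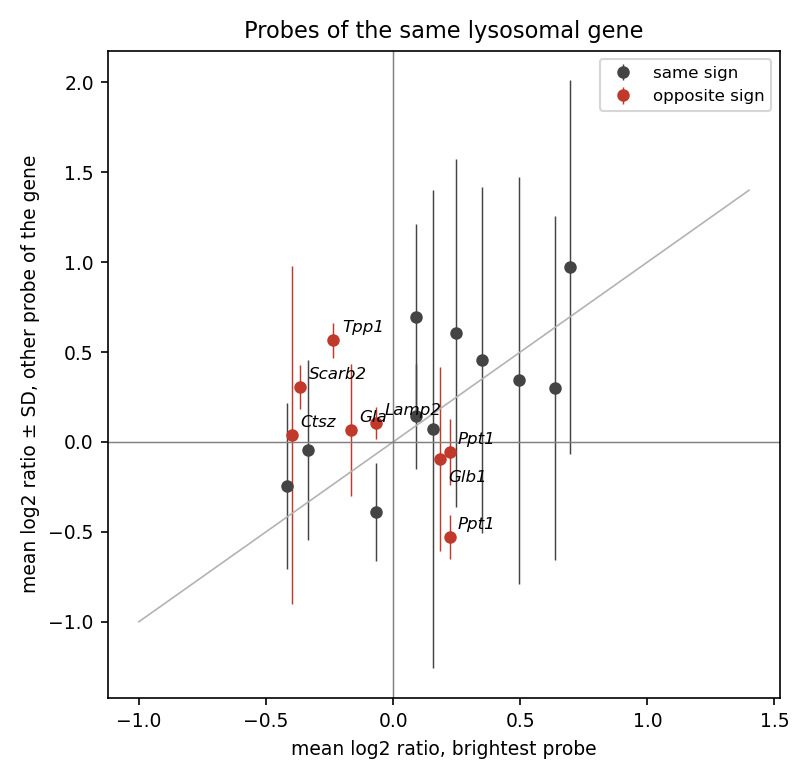
Mean log2 ratio of cKO over control of the other probes of a lysosomal gene (y axis, bars show the SD over 3 arrays) against that of its brightest probe (x axis), with the line of equality in grey. Of the 19 points, 8 (red, named) lie in the quadrants of opposite sign, and of these Scarb2, Tpp1, Lamp2 and 1 probe of Ppt1 have bars that do not reach 0.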

How the data were processed

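RNA of 3 cKO and 3 control pools was measured on 3 two-colour Agilent arrays. The deposited files hold spot and local background intensity values as scanned, which per the file headers were read with Agilent Feature Extraction (version 9.1.3.1), and log10 ratios of red over green that the authors deposited, made from processed signals. Here mean signals were corrected with median local background (normexp, offset 50) and normalised by loess within arrays with limma 3.58.1 under R 4.3.3. Because of the offset, dim probes tend to have ratios nearer to 0 than their true ones. Control spots had weight 0, outlier spots were left out, and replicate spots were averaged. A gene was tested if its brightest probe was well above background in either channel on all 3 arrays. Ratios were tested against 0 with lmFit and eBayes, two-sided, and adjusted by Benjamini-Hochberg for 17889 genes. The script was tested on simulated data. Levels per channel followed Aquantile normalisation. Names are those of the files. Arrays were grouped by title, since the Cre name in the genotype labels of arrays 2 and 3 ends in the array's own number. The p-values reflect the spread between arrays, each with its own pair of pools hybridised once, and not that between animals. The members and lists were chosen with earlier results of these data known, so no test was made over a list. Named genes are all members, Arntl, Star, and of the other lists up to the 3 largest mean ratios and any that passed, of which 1 is not reported here.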

Additional observations from a re-analysis of the deposited data

How the results depend on the processing

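Under all 12 alternatives no lysosomal gene passed an adjusted p of 0.05 (limma), and the lowest was 0.0812 (Psap without array 3). The number of all genes called was 40, against 54 with the scanner's ratios, 49 with the slide as a block, 47 without background subtraction, 43 with both channels above background, 37 with the mean of probes, 32 with updated names, 1 with median centring, and 0 with scaling between arrays (2301 at an unadjusted p under 0.05) or without the dim filter (3187). Leaving out an array gave 0 to 22, with 0 without array 3 (4779 unadjusted), 1 without array 1 and 22 without array 2. Lysosomal genes at an unadjusted p under 0.05 numbered 6, and from 1 to 9 under the 9 alternatives that keep all arrays. Beside the 6 stood 2205 of the 17889 genes tested. Beside the 1, with the scanner's ratios, stood 1072, and beside the 9, with median centring, stood 2738. The median ratio of the lysosomal genes was 0.16 and from 0.0989 to 0.312 under those alternatives, with median centring moving the median of all genes by 0.121. Each ratio already pairs the cKO and the control pool that shared an array, so no further replicate block could be added.

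With the scanner's ratios the median was -0.45 for the clock list and 0.063 for lymphocyte markers, and means changed sign for Ctsa (-0.0097), Ctsk (0.056), Ctsz (0.092), Lamp1 (0.030), Lamp2 (0.24), Cd63 (-0.058), Glb1 (-0.021), Asah1 (0.16), Scarb2 (0.065), Tpp1 (0.093) and Naglu (-0.065). With median centring the median was 0.23 for other membrane proteins, 0.21 for the proton pump and 0.18 for endothelium, and Ctsk (0.069), Lamp2 (0.072), Gla (0.045) and Asah1 (0.14) changed sign. With the mean of all probes, Tpp1 was at 0.17 and Ppt1 at -0.12. The cause of these changes was not tested.

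Leaving out an array gave medians of 0.0958 to 1.00 for cofactors, -0.12 to 0.23 for glycosidases, -0.25 to 0.16 for granulosa markers and -0.0225 to 0.0153 for lymphocyte markers. It turned the sign of 13 lysosomal genes, whose means ran from -0.28 to 1.00 (Psap), -0.17 to 0.54 (Ctsa), -0.070 to 1.07 (Ctsd), -0.30 to 0.082 (Ctsk), -0.72 to 0.14 (Ctsz), -0.39 to 0.30 (Hexa), -0.25 to 0.0054 (Gla), -0.0143 to 0.21 (Gusb), -0.52 to 0.058 (Gaa), -0.11 to 0.031 (Asah1), -0.32 to 0.49 (Lipa), -0.39 to 0.037 (Tpp1) and -0.26 to 0.63 (Acp5).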
